A study of Rattus norvegicus with 6 samples.

Results

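The miRNAs miR-221 and miR-222 were followed in the trigeminal ganglion of the rat after injury of a sensory nerve of the face. They were taken as every entry of the deposited count table whose name has the stem miR-221 or miR-222, whatever the strand. This gave 3 mature miRNAs of 650 listed: rno-miR-221-3p, rno-miR-221-5p and rno-miR-222-3p. All 3 passed the filter on low counts, which kept 463 miRNAs. miR-222-5p, the partner strand of miR-222-3p, was not analysed here.

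The libraries came from Sprague-Dawley rats aged 8 to 10 weeks, and the labels name no transgene or drug. In the CCI-ION group (chronic constriction injury of the infraorbital nerve, 3 libraries) loose silk ligatures were tied around the left infraorbital nerve, a sensory branch of the trigeminal nerve. In the sham group (3 libraries) the nerve was exposed on the same side and left unligated. Ganglia of the operated side were taken on day 14. The labels do not say whether each library came from a separate animal, nor the sex of the rats, and the p-values therefore reflect only how these libraries vary, part of which may be technical.

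miR-221 and miR-222 are cut from neighbouring hairpins of a common transcript and their 3p strands share a seed, the stretch of bases that pairs with target messenger RNAs. They are known to repress the cell cycle inhibitor p27 and to promote proliferation of vascular smooth muscle and tumour cells. In the peripheral nervous system both have been reported to rise after axotomy, in Schwann cells and in dorsal root ganglia, where miR-222 was linked to neurite outgrowth.

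The mature sequences show why the 3p strands are described together. The seed, bases 2 to 8 counted from the 5′ end, is in capitals. The 3 deposited sequences were the same as those of RefSeq (build GRCr8), apart from T in place of U.
miR-221-3p: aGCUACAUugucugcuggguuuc
miR-222-3p: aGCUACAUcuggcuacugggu
miR-221-5p: aCCUGGCAuacaauguagauuuc
miR-221-3p and miR-222-3p were identical over their first 8 bases and at 11 of the 21 positions that both have when set side by side without gaps. No other listed miRNA had their seed, and none had the seed of miR-221-5p. The closest listed sequence to either 3p strand was the other one, at 6 single-base edits, and the closest to miR-221-5p was miR-132-5p at 9 edits. A full-length read that matches one of these strands with up to 2 mismatches is therefore not equally close to another listed miRNA.

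The hairpins show where the measured strands, in capitals, sit in their precursors. RefSeq places Mir221 at chrX:6023182-6023290 and Mir222 at chrX:6022621-6022723, both on the plus strand of GRCr8.
Mir221: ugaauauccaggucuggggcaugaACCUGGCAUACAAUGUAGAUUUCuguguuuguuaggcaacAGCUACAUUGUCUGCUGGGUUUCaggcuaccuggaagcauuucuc
Mir222: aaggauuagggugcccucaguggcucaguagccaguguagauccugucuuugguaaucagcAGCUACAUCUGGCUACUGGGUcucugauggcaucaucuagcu
Mir222 lies upstream of Mir221, with 458 bases between the hairpins. Both hairpins fall inside the spans of 2 long noncoding RNA genes in that annotation, LOC120099382 and LOC120099384. Whether they are exonic or intronic there was not analysed here. These positions belong to GRCr8, while the reads were processed on rn6, per the submitters' processing notes.

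Total miRNA counts per library ranged from 6420434 to 12560545. The libraries numbered 1 in each group stood apart from the other 4 along the first principal component of log2 levels, which held 49.3% of the variance, and were sequenced most deeply. Libraries of the same number deviated together from their group means, and for that reason values from a fit with the number as a block are given where they change a call. Markers of sensory neurons were abundant, since miR-183-5p, miR-96-5p and miR-182 summed to 34693 to 45627 CPM (counts per 1000000 miRNA counts, scaled by TMM factors that correct for library composition), and no cell type marker found in the table was at 0 in every library.

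miR-221-3p, the strand that carries most of the miR-221 reads, averaged 1.39 times the sham level in CCI-ION ganglia and was higher in each CCI-ION library than in the sham library of its number, as a share of miRNA counts. It had 3476, 2870 and 2533 counts in libraries sham 1 to sham 3, and 3366, 2639 and 3004 in CCI-ION 1 to CCI-ION 3, where the total of all miRNAs was smaller within each number. Its TMM-scaled level was 261, 292 and 254 CPM in sham and 290, 425 and 404 CPM in CCI-ION. CCI-ION libraries 2 and 3 lay above all sham libraries, while CCI-ION library 1 lay just below sham library 2, so the groups overlapped. Without TMM factors they did not, at 277, 283 and 251 CPM against 306, 411 and 390, and 6.7% of the 463 tested miRNAs were higher without overlap on each of these scales. Among miRNAs ordered by count in a library, miR-221-3p stood between place 123 and 127 in sham and between 105 and 116 in CCI-ION.

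The group means were 269 ± 20.2 CPM in sham and 373 ± 72.4 CPM in CCI-ION (SD, n = 3 each). The log2 fold change from the edgeR quasi-likelihood fit over all 463 miRNAs was 0.47 ± 0.18 (SE), with a 95% interval of 0.05 to 0.89. The unadjusted p was 0.0338, a level that 9.94% of tested miRNAs reached, and the Benjamini-Hochberg adjusted p was 0.448. Without the block, none of the 3 strands was called at an adjusted p under 0.05, against 3 of all tested miRNAs (0.648%). With the number as a block, miR-221-3p rose by a log2 fold change of 0.45 ± 0.11 (edgeR adjusted p = 0.00231), and 6.05% of tested miRNAs were called higher in that fit. DESeq2 with the block also called it higher (adjusted p = 0.00586, 5.62% of miRNAs called higher), and limma-voom with the block did not (adjusted p = 0.055, 4.75% called higher). In a bulk ganglion, a change in the number of cells that hold a miRNA and a change in its level per cell cannot be told apart.

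The differences within each number were uneven. On the log2 scale, CCI-ION exceeded sham by 0.15 in the libraries numbered 1, by 0.54 in those numbered 2 and by 0.67 in those numbered 3. The larger differences were thus those of the libraries numbered 2 and 3. Leaving out both libraries numbered 2 gave 0.42 ± 0.15 (edgeR adjusted p = 0.174), and leaving out both numbered 3 gave 0.34 ± 0.17 (edgeR adjusted p = 0.534). Without those numbered 1 the value was 0.60 ± 0.12 (edgeR adjusted p = 0.000455). Calls over all 463 tested miRNAs also fell, from 54 in the blocked fit to 27 without number 2 and 2 without number 3. Without number 1 there were 66. 

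**Figure D1:**
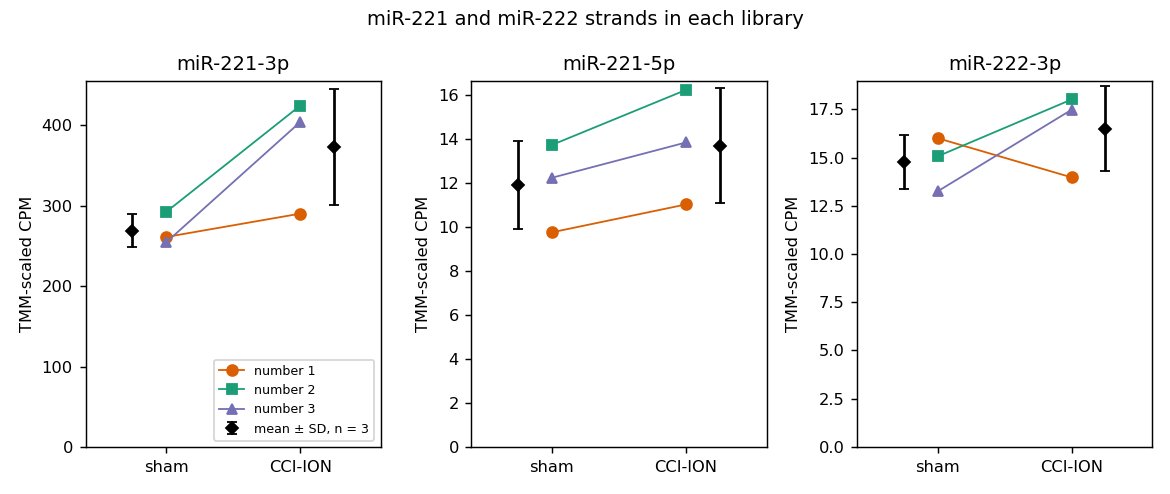
Level of each strand in every library, in TMM-scaled CPM on a linear axis from 0, for sham and CCI-ION. Coloured points joined by a line are libraries of the same number, and black diamonds with bars are the mean and SD over 3 libraries. All 3 lines ascend for miR-221-3p and miR-221-5p, and the line of number 1 descends for miR-222-3p.

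miR-221-5p, the partner strand cut from the other arm of the same hairpin, was far less abundant. It had 130, 135 and 122 counts in libraries sham 1 to sham 3, and 128, 101 and 103 in CCI-ION 1 to CCI-ION 3. Its level was 9.76, 13.7 and 12.2 CPM in sham and 11.0, 16.2 and 13.9 CPM in CCI-ION. The lowest library of both groups was the one numbered 1, and the groups overlapped. Means were 11.9 ± 2.01 and 13.7 ± 2.61 CPM (SD, n = 3 each), and the log2 fold change was 0.20 ± 0.22 (edgeR adjusted p = 0.902, and 0.597 with the block). The 95% interval of the fold change ran from 0.799 to 1.65, so a change of the size seen for miR-221-3p lay within it. With 101 to 135 reads per library, counting alone gave a coefficient of variation of 8.61% to 9.95%, against 16.9% and 19.0% between libraries of sham and CCI-ION.

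miR-222-3p, the seed partner of miR-221-3p, had 213, 148 and 132 counts in libraries sham 1 to sham 3, and 162, 112 and 130 in CCI-ION 1 to CCI-ION 3. Its level was 16.0, 15.1 and 13.3 CPM in sham and 14.0, 18.0 and 17.5 CPM in CCI-ION. CCI-ION libraries 2 and 3 exceeded all sham libraries, while CCI-ION library 1 was below sham libraries 1 and 2. Means were 14.8 ± 1.40 and 16.5 ± 2.20 CPM (SD, n = 3 each). The log2 fold change was 0.15 ± 0.18 (edgeR adjusted p = 0.912, and 0.711 with the block), with a 95% interval of the fold change from 0.832 to 1.49. Within numbers 1, 2 and 3 the log2 differences were -0.19, 0.26 and 0.39. Without the libraries numbered 1 the blocked value was 0.33 ± 0.19 (edgeR adjusted p = 0.32), and without those numbered 3 it was 0.02 ± 0.24 (edgeR adjusted p = 0.98).

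In both groups miR-221-3p was the most abundant strand. Its lowest library, at 254 CPM, was over the highest library of the other strands, at 18.0 CPM. The neighbours in that order, miR-222-3p and miR-221-5p, had overlapping ranges over the 6 libraries, 13.3 to 18.0 and 9.76 to 16.2 CPM. Within each of the 6 libraries miR-222-3p had the higher count, by 1.08 to 1.64 times. Levels of different miRNAs in a sequencing library also carry their ligation and amplification efficiency, which was not measured. The median log2 fold change of the 3 strands was 0.20, where the median of the 463 tested miRNAs was 0.01 and 51.2% of them were above 0. The 25th and 75th percentiles of all tested miRNAs were -0.17 and 0.19, so miR-221-3p and, narrowly, miR-221-5p were above the upper one and miR-222-3p below it.

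The scale of the library total altered these values. The deposited RPM values (reads per 1000000) divide by a larger total of reads, of which miRNA counts made up 61.8% ± 8.25 in sham and 49.0% ± 5.87 in CCI-ION (SD, n = 3 each). On that scale miR-221-3p stood at 145, 188 and 167 RPM in sham and 139, 188 and 218 RPM in CCI-ION, with overlapping groups (two-sided exact permutation p = 0.7, n = 3 each). There CCI-ION was below sham in number 1, nearly equal in number 2 and above it in number 3. miR-222-3p stood at 8.87, 9.72 and 8.72 RPM in sham and 6.68, 7.99 and 9.42 RPM in CCI-ION (two-sided exact permutation p = 0.3). miR-221-5p averaged 7.44 ± 1.81 RPM in sham and 6.65 ± 1.20 RPM in CCI-ION (two-sided exact permutation p = 0.5, n = 3 each). With libraries scaled to these totals, the edgeR log2 fold changes were 0.12 for miR-221-3p, -0.16 for miR-221-5p and -0.18 for miR-222-3p, where the median of all tested miRNAs was -0.34. Relative to that median they were 0.46, 0.18 and 0.15, close to the values under TMM scaling. With the block on these totals miR-221-3p was at 0.11 ± 0.16 (edgeR adjusted p = 0.61) and was not called. The direction of miR-221-5p and miR-222-3p is thus a direction relative to other miRNAs and not one that held on both scales.

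**Figure D2:**
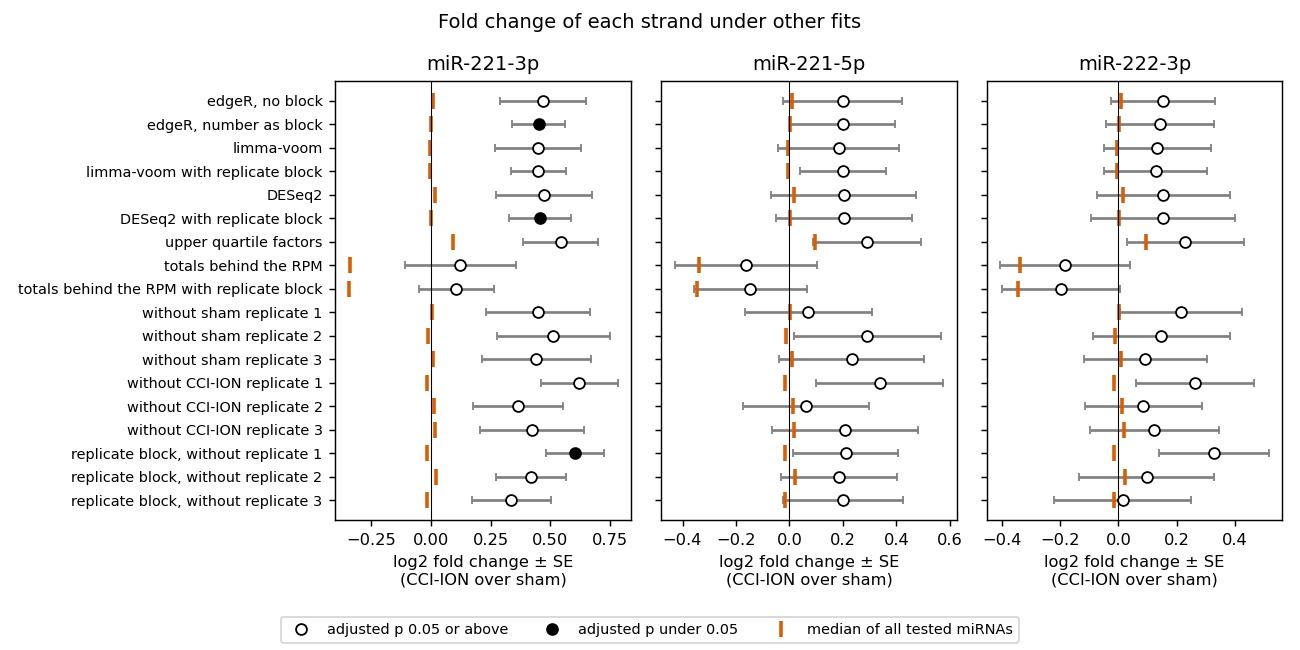
Log2 fold change (CCI-ION over sham) of each strand, with its SE, under the fit without the block and under other fits, 1 per line. Filled circles have an adjusted p under 0.05, and orange ticks mark the median of all tested miRNAs. Only 3 circles are filled, all for miR-221-3p and all with the number as a block, and the circles of the other strands move below 0 together with the median when libraries are scaled to the totals behind the RPM.

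Ratios between strands within a library need no scaling and ask whether the strands changed alike. Of the reads with the shared seed, miR-222-3p held 5.77%, 4.90% and 4.95% in libraries sham 1 to sham 3, and 4.59%, 4.07% and 4.15% in CCI-ION 1 to CCI-ION 3. Every CCI-ION library was below every sham library, and the share was lower within each number. The 95% Wilson intervals of single libraries, which cover counting error only, overlapped for some pairs of libraries, such as 4.19% to 5.84% in sham library 3 and 3.50% to 4.90% in CCI-ION library 3. The interval of sham library 1, 5.07% to 6.57%, lay wholly above those of CCI-ION libraries 2 and 3. The mean log2 ratio of miR-222-3p to miR-221-3p differed by -0.30 (-4.19 ± 0.14 in sham, -4.49 ± 0.10 in CCI-ION, SD, n = 3 each). The two-sided exact permutation test gave p = 0.1, below which this design cannot go, and 0.4 after adjustment over the 4 ratios tested. Of the 462 other tested miRNAs, 32.5% had a ratio to miR-221-3p that was lower in CCI-ION without overlap, so miR-222-3p shared this with many miRNAs.

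miR-221-5p held 3.61%, 4.49% and 4.60% of the miR-221 reads in libraries sham 1 to sham 3, and 3.66%, 3.69% and 3.32% in CCI-ION 1 to CCI-ION 3. The share was lower in CCI-ION for numbers 2 and 3 and nearly equal for number 1, and the groups overlapped. The log2 ratio of miR-221-5p to miR-221-3p differed by -0.25 (-4.51 ± 0.20 and -4.76 ± 0.09; exact permutation p = 0.3, 0.4 adjusted over 4 ratios). In sham the 3p strand was 22.7 times as abundant as the 5p strand. Among 133 hairpins with both strands tested, 53 were more uneven, and the median was 12.1-fold. The ratio of the strands differed without overlap between groups in 6.77% of those hairpins, and miR-221 was not among them.

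**Figure D3:**
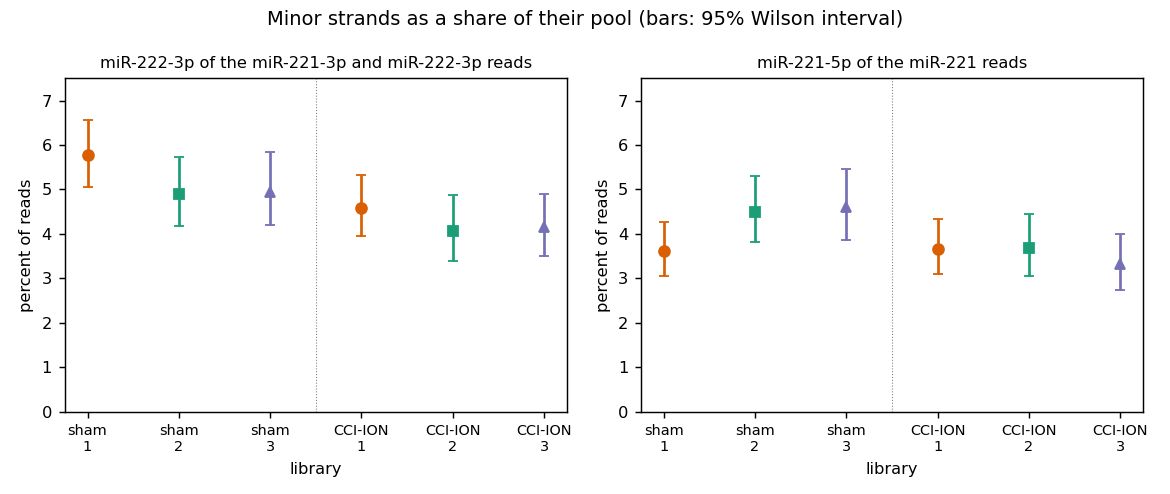
Share of miR-222-3p among the reads of miR-221-3p and miR-222-3p (left) and of miR-221-5p among the miR-221 reads (right), in percent, for each library. Bars are 95% Wilson intervals for counting error and the dotted line separates sham from CCI-ION. On the left the 3 CCI-ION points (4.07% to 4.59%) sit below the 3 sham points (4.90% to 5.77%), and on the right the groups overlap.

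Together the 3 strands held 0.0304%, 0.0311% and 0.0276% of miRNA counts in libraries sham 1 to sham 3, and 0.0332%, 0.0444% and 0.0421% in CCI-ION 1 to CCI-ION 3. The share was higher in all CCI-ION libraries (exact permutation p = 0.1, the lowest possible). Of the 463 tested miRNAs, 6.7% were each higher without overlap as a share of miRNA counts. miR-221-3p was among them, and miR-221-5p and miR-222-3p were not. Taken of the totals behind the RPM, the mean share differed by 0.0013 percentage points (two-sided exact permutation p = 0.8, n = 3 each). miR-221-3p made up nearly all of it. Over the 6 libraries, log2 levels of miR-221-3p correlated with those of miR-222-3p at r = 0.84 and with those of miR-221-5p at r = 0.79, as a description of 6 libraries that share depth and processing. Those of miR-221-5p and miR-222-3p correlated at r = 0.52.

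Next to other miRNAs of the injury response, the strand can be set against miR-21-5p, which is widely induced by injury and represses inhibitors of growth signalling such as Sprouty. miR-21-5p averaged 3077 ± 555 CPM in sham and 5727 ± 2099 CPM in CCI-ION. The log2 ratio of miR-221-3p to miR-21-5p was -3.50 ± 0.16 in sham and -3.89 ± 0.29 in CCI-ION (SD, n = 3 each). The difference of -0.39 was negative within all 3 numbers (two-sided exact permutation p = 0.2, 0.4 adjusted over 4 ratios). With 3 libraries in each group this test cannot go below 0.1, so no ratio could reach 0.05. The ratio to miR-146b-5p, which dampens innate immune signalling, was -4.45 ± 0.13 and -4.55 ± 0.20, a difference of -0.10 (two-sided exact permutation p = 0.6, n = 3 each). Without CCI-ION library 1 this difference was 0.01.

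A list of 28 miRNAs linked in published work to nerve injury or axon growth was tested in the same fits, and it includes miR-221-3p and miR-222-3p. The list was chosen with earlier results of these data known, so its counts are a description and not independent support. With the block 7 of its 28 members rose and 4 fell, and without the block 0 passed in either direction. Over all 463 tested miRNAs the blocked fit called 6.05% higher and 5.62% lower. Besides miR-221-3p, those that rose were miR-21-5p, miR-20a-5p of the proliferative miR-17-92 group, the leukocyte miRNAs miR-142-3p and miR-155-5p, and miR-146a-5p and miR-146b-5p. Those that fell were miR-124-3p and miR-138-5p, both abundant in neurons, miR-34a-5p, which p53 induces, and the muscle miRNA miR-1b. The values of miR-20a-5p, miR-146a-5p, miR-146b-5p, miR-1b and the abundant miR-26a-5p are uncertain, because each differs by at most 2 bases from another listed miRNA and reads could be divided between them. The blocked log2 fold change of miR-221-3p, 0.45, was below those of miR-21-5p (0.84), miR-142-3p (0.74), miR-155-5p (0.63), miR-146b-5p (0.55) and miR-20a-5p (0.49), and above that of miR-146a-5p (0.40). These differences in size were compared only for miR-21-5p and miR-146b-5p, in the ratios above, by a test that cannot go below 0.1. Leaving out the libraries numbered 1 also gave 7 higher and 4 lower with the block. Leaving out those numbered 2 gave 3 higher and 2 lower, and leaving out those numbered 3 gave 0. Over all 463 tested miRNAs the fits without numbers 1, 2 and 3 called 39, 12 and 0 higher and 27, 15 and 2 lower. The list median of the log2 fold change was 0.08 without the block, against 0.01 over all tested miRNAs. With the block it was 0.07, against 0.0003. Its most abundant members, miR-26a-5p (92151 ± 16292 CPM in sham and 94743 ± 13587 CPM in CCI-ION), miR-182, miR-183-5p and miR-9a-5p, were not called in either fit.

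**Figure D4:**
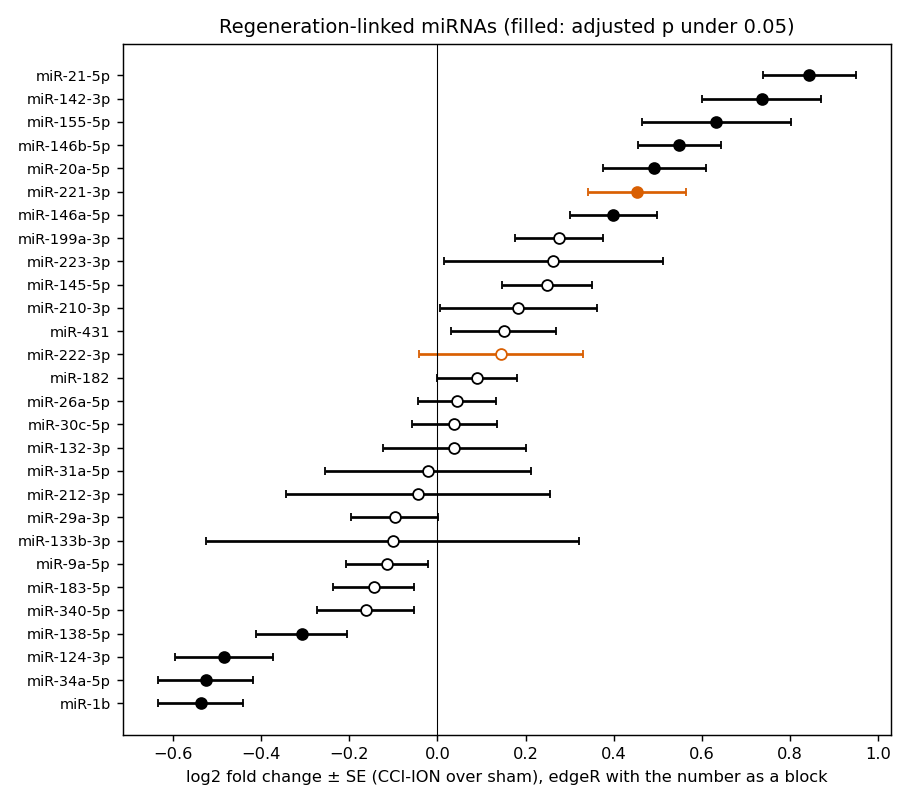
Log2 fold change (CCI-ION over sham) with SE of the 28 listed miRNAs, from edgeR with the number as a block, in order of size. Filled points have an adjusted p under 0.05 and orange points are miR-221-3p and miR-222-3p. miR-221-3p (0.45) stands sixth from the top among 7 filled points above 0, and miR-222-3p (0.14) is open.

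The miRNAs whose levels ran most like those of miR-221-3p over the 6 libraries were, by Pearson correlation of log2 CPM, miR-582-3p (r = 0.98), miR-365-3p (0.98), miR-21-5p (0.98), miR-1193-3p (0.95) and miR-494-3p (0.93). Of these, miR-21-5p and miR-494-3p were called higher with the block. For miR-222-3p they were miR-223-5p (r = 0.92), miR-365-3p (0.92), miR-466c-5p (0.91), miR-410-3p (0.90) and miR-511-5p (0.90), none of which was called. These values describe 6 libraries, belong to miRNAs picked as the highest among all tested ones, and carry no test. miR-365-3p stood in both sets, with 20.0 ± 1.71 CPM in sham and 25.8 ± 5.61 CPM in CCI-ION (n = 3 each). Low in level were miR-466c-5p (4.62 ± 1.03 CPM in sham and 5.72 ± 1.43 CPM in CCI-ION) and miR-511-5p (1.01 ± 0.50 and 1.85 ± 0.48 CPM).

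miR-221 and miR-222 are also known from vascular and connective tissue cells, and markers of those cells were measured beside them. The endothelial pair miR-126a-3p and miR-126a-5p summed to 10373 to 14748 CPM in sham and 10952 to 15330 CPM in CCI-ION, and 0 of the 2 were called. The 4 mural markers, led by miR-143-3p, summed to 18517 to 27686 CPM in sham and 17810 to 32002 CPM in CCI-ION, with 0 of 4 called. The fibroblast markers summed to 7700 to 9927 CPM in sham and 7502 to 13001 CPM in CCI-ION, and 1 of 4 tested, miR-199a-5p, rose with the block (1110 ± 279 to 1521 ± 482 CPM, n = 3 each, edgeR adjusted p = 0.00383). The 6 leukocyte markers were the only listed group whose sum did not overlap between groups, at 271 to 302 CPM in sham and 352 to 382 CPM in CCI-ION. With the block 3 of these 6 rose, where 6.05% of all tested miRNAs did: miR-142-3p, miR-155-5p and miR-342-3p. Of 9 neuronal markers 6 fell with the block, where 5.62% of all tested miRNAs did (miR-218a-5p, miR-138-5p, miR-129-5p, miR-128-3p, miR-124-3p and miR-7a-5p), and their sums ranged from 24014 to 28563 CPM in sham and from 19154 to 24497 CPM in CCI-ION. Among the remaining cell type lists, 0 of 4 erythroid markers and 0 of 3 sensory neuron markers were called, 2 of 5 skeletal muscle markers fell with the block (miR-1b and miR-133a-3p, uncertain for the same reason, as is the neuronal miR-7a-5p), 1 of 8 epithelial markers rose with it (miR-205) and 1 of 5 myelinating glia markers rose in both fits (miR-219a-1-3p). When number 3 was left out of the blocked fit, no marker of any of these cell type lists was called. Without those numbered 2, the blocked fit called 0 of the leukocyte and fibroblast markers, 3 neuronal and 2 muscle markers lower, and 1 epithelial and 1 glial marker higher. Leaving out number 1 gave 4 leukocyte markers higher and 4 neuronal and 3 muscle markers lower. It also gave 1 fibroblast, 1 erythroid and 1 glial marker higher, and 1 epithelial marker in each direction. Over all 463 tested miRNAs the blocked fit without number 3 called 0 higher and 2 lower. The blocked fit without number 2 called 12 higher and 15 lower, and that without number 1 called 39 higher and 27 lower. The cell type lists were also chosen with earlier results of these data known. Of their called members, miR-142-3p, miR-155-5p, miR-124-3p, miR-138-5p and miR-1b are in the regeneration-linked list too and are counted again here. The part of these groups in the values of miR-221-3p was not tested.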

How the data were processed

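Small RNA of 3 sham and 3 CCI-ION ganglia libraries was analysed from a table of raw counts per mature miRNA and 1 file of RPM values per library, both deposited by the authors. The tools cutadapt 1.14 and Bowtie 1.1.1 and the build rn6 are named for all libraries, per the submitters' processing notes; how reads were counted, and against which miRNA annotation, is not stated there. Identical mature sequences share 1 entry. The deposited RPM values were the counts times 1 constant per library: whole reads came out of 100% of values within 0.01 read. These reads equalled the deposited counts, so edgeR on them could only call the same number, 3. What the total behind the RPM counts is not stated.

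Counts were tested with edgeR 4.0.16 (robust quasi-likelihood fit, TMM factors, filterByExpr) in R 4.3.3. The threshold was a Benjamini-Hochberg adjusted p under 0.05 over all 463 tested miRNAs. DESeq2 1.42.0, limma-voom (limma 3.58.1), other scalings, no filter and left-out libraries were alternatives. A floor of 3 counts was 0.239 to 0.467 CPM. Levels for likeness were log2 CPM with a prior count of 2. Ratios and shares were compared with two-sided exact permutation tests, for which 3 against 3 libraries cannot go below 0.1. The procedure was run on data simulated from the same fits. The planted changes were larger than those of the 3 strands, so this run says nothing of changes of their size.

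Both groups carry numbers 1 to 3, whose meaning the labels do not give. Deviations from the group means correlated at 0.664, 0.591 and 0.457 for numbers 1 to 3, and at -0.614 to 0.167 for other combinations. All 3 were above 0.1, but so was the 0.167 of sham library 2 with CCI-ION library 3. The deviations were taken from group means of 3 libraries, so these correlations depend on one another. The number was taken to pair libraries on this evidence from the same data. The blocked calls, that of miR-221-3p among them, therefore rest on a pairing that the labels do not state. The block leaves 2 residual degrees of freedom, against 4 without it. The edgeR p-values also borrow across miRNAs, at a median of 54.5 prior degrees of freedom with the block and 3.3 without. The blocked edgeR p-values thus rest mainly on a spread shared across miRNAs. Named were the strands themselves, the 5 miRNAs most like each 3p strand, miR-21-5p and miR-146b-5p, and called or most abundant members of the lists. The strands and the lists were chosen with earlier results of these data known.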

Additional observations from a re-analysis of the deposited data

How the results depend on the processing

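miR-221-3p kept a positive log2 fold change under all 20 alternatives. These include edgeR on the reads recovered from the RPM, whose input was the same as that of the main fit. It was past the threshold in 3 of them: with the replicate block (0.45), with DESeq2 and the replicate block (0.46), and with the block after number 1 was left out (0.60). Leaving out 1 library at a time without the block moved it from 0.37 to 0.62, and its adjusted p ranged from 0.12 to 0.909. With libraries scaled to the totals behind the RPM, miR-221-3p was at 0.12 ± 0.23 (SE) without the block and 0.11 ± 0.16 with it. Both values were smaller than their SE. miR-221-5p and miR-222-3p were called under none of the 20 and changed sign only under scaling to the RPM totals, to -0.16 and -0.18 without the block and to -0.15 and -0.20 with it, where the median of all tested miRNAs was -0.34 and -0.35. Leaving out 1 library moved miR-221-5p from 0.06 to 0.34 and miR-222-3p from 0.09 to 0.26. The number of miRNAs called, 3, was 54 with the replicate block, 44 with DESeq2 and the block, 39 with limma-voom and the block, 9 with DESeq2, 6 without the filter, 6 with the totals behind the RPM and 158 with those totals and the block. It was 1 to 7 when 1 library was left out. With the block it was 66, 27 and 2 without the libraries numbered 1, 2 and 3. The cause of these shifts in number was not tested.

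The 4 ratios kept their sign with 1 count added, with pairs by number and without any 1 library, except that of miR-221-3p to miR-146b-5p, which was 0.0063 without CCI-ION replicate 1 and ranged from -0.19 to 0.0063. Exact sign-flip tests over the 3 pairs cannot go below 0.25. They gave 0.25 for the ratios of miR-222-3p to miR-221-3p and of miR-221-3p to miR-21-5p. The summed share of the 3 strands differed by 0.0102 percentage points among miRNA counts and by 0.0013 of the total behind the RPM (two-sided exact permutation p = 0.8, n = 3 each). The 101 to 213 reads per library of miR-221-5p and miR-222-3p limit what can be said of them.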
